A study of Homo sapiens with 6 samples.

Results

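The transcripts of the pyruvate dehydrogenase complex, its kinases and its phosphatases were followed through normoxia, hypoxia and treatment with BAY 87-2243 in H460 cells. The 10 genes were listed by symbol (the kinases PDK1, PDK2, PDK3 and PDK4, the phosphatases PDP1 and PDP2, and the subunits PDHA1, PDHB, DLAT and PDHX). Each was read from the brightest probe set that carries its symbol alone. By that rule 9 of the 10 were measured, each by 1 probe set, among 18417 genes on the array, and PDP2 was not analysed here. By their mean over the arrays all 9 were brighter than the median probe set, which had an intensity of 132, and PDK2 was close to it at 120 to 164.

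H460 cells are an established line of large cell lung carcinoma, and BAY 87-2243 is a small molecule that lowers HIF-1 activity and inhibits mitochondrial complex I. Total RNA was hybridized to Affymetrix Human Gene 1.0 ST arrays after 16 h in low-serum medium, with 1 array for each of 6 conditions. These were normoxia with the solvent DMSO, normoxia with BAY 87-2243 at 100 nmol/L, hypoxia (1% pO2) with DMSO, hypoxia with 100 nmol/L, and 2 further hypoxic arrays at lower concentrations. The first of these is given as 10 nM in its title and treatment label but as 1 nM in its source name, and for the second the labels are the other way round, so each is called by its title and no order of dose is taken from them.

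All arrays come from 1 cell line, and no replicate of any condition was analysed here. A difference is therefore that of 2 arrays, on the log2 scale of the intensity, and no p-value was computed. Effects of the treatment, of the single culture and of the array cannot be told apart, and the number of arrays limits the precision. Array medians lay between 128 and 140, and centring on them would move the hypoxic DMSO array by 0.11 (log2) against the normoxic one. Counts use a size rule of 2-fold and a lower one of 1.5-fold, each read against the share of all genes that passed it. As a scale for single values, 95% of the 11307 genes brighter than the median probe set lay within 1.28-fold between the most similar pair of arrays. This pair, the normoxic and the hypoxic array with 100 nmol/L, also differs in oxygen. The keratins KRT8, KRT18 and KRT19, which mark epithelial cells, were bright on every array (7807 to 11774), whereas CDH1 and EPCAM, which most epithelial cells carry, were below the median probe set (30 to 77). Of 10 markers of blood, endothelial, fibroblast and muscle cells 5 were brighter than the median probe set, CD68 most of all (3157 to 4763), and their summed intensity lay between 4941 and 6659 with PTPRC, the pan-leukocyte marker, at 16 to 23. Their part in the results was not tested. RNA of whole cultures does not distinguish fewer expressing cells from less RNA per cell.

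The pyruvate dehydrogenase complex sits in the mitochondrial matrix and turns pyruvate from glycolysis into acetyl-CoA for the citrate cycle. Its kinases phosphorylate the alpha subunit of the first enzyme and switch the complex off, and its phosphatases remove the phosphate and switch it on. PDK1 is a textbook target of HIF-1, through which hypoxic cells divert pyruvate to lactate, and PDK4 is best known for its induction by fasting through nuclear receptors and FOXO factors. Phosphorylation and enzyme activity are not seen by arrays, which measure transcripts only.

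In hypoxia with DMSO 3 of the 4 kinases stood 1.5-fold or more above normoxia with DMSO, and the subunits and PDP1 differed by at most 1.31-fold. PDK4 and PDK3 differed by 2.56-fold and 2.26-fold, PDK1 by 1.86-fold and PDK2 by 1.12-fold. Of the 9 genes 2 were at least 2-fold higher, against 1.67% of all genes, and 0 were at least 2-fold lower, against 3.67%. At 1.5-fold 3 were higher (8.9% of all genes) and 0 lower (11% of all genes). The median log2 difference of the 9 genes was 0.16, beside 0.08 for all genes.

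PDK4 had intensities of 943 in normoxia with DMSO, 963 in normoxia with 100 nmol/L, 2417 in hypoxia with DMSO, 2532 on the array titled 10 nM, 1353 on the array titled 1 nM and 1360 in hypoxia with 100 nmol/L. The normoxic pair was level, the values of hypoxia with DMSO and of the array titled 10 nM stood far above it, and the last pair fell between. The hypoxic difference with DMSO was 1.36 on the log2 scale, the 138th highest of 18417 genes.

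PDK3, a kinase isoform with a restricted tissue range, had intensities of 892 and 624 in normoxia with DMSO and with 100 nmol/L. In hypoxia it was at 2019 with DMSO, 1934 on the array titled 10 nM, 1065 on the array titled 1 nM and 1073 with 100 nmol/L. Here too the hypoxic arrays split into a high and a low pair, but unlike PDK4 the gene was also lower in normoxia with the compound. Its hypoxic log2 difference with DMSO was 1.18, the 189th highest.

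PDK1 had intensities of 3204 and 2795 in normoxia with DMSO and with 100 nmol/L. In hypoxia it was at 5946 with DMSO, 6101 on the array titled 10 nM, 5158 on the array titled 1 nM and 4805 with 100 nmol/L. All 4 hypoxic arrays lay above both normoxic ones, and the lowest hypoxic value was still 1.5-fold above normoxia with DMSO. The hypoxic log2 difference with DMSO was 0.89, below the 2-fold rule, and the 456th highest. Taken from the array titled 10 nM, which had like values, it was 0.93, and those of PDK3 and PDK4 were 1.12 and 1.42.

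The promoters of the kinases with the widest differences are shown with the letters to which HIF-1 is known to bind, ACGTG or GCGTG, searched on both strands in the 250 bases before each start site that RefSeq lists (build GRCh38.p14). Matches are in capitals, a match on the other strand reads CACGT or CACGC, and a palindromic CACGTG counts once on each strand. Either motif occurred in 43.2% of all 35116 windows of this length, ACGTG in 18.5% and GCGTG in 32.2%. Windows of PDP1 were left out of the search, so the genes searched were the other 9 of the 10, PDP2 included. Of these 9 genes 8 had a match in at least 1 of their windows. Over all 27305 genes, with none left out, the share was 47.4%. Counted by window, 8 of their 13 had a match. G and C made up 62% to 79.6% of the bases in windows with a match and 35.6% to 72% in those without. The share over all genes takes no account of base composition. PDK1 has 2 listed start sites, of which the upstream one (chr2:172555123-172555372) held no match. Which of them H460 cells use was not tested. The window of its downstream start site (chr2:172555840-172556089, plus strand) had 2 copies of ACGTG on the other strand, the first from 17 to 13 and the second from 8 to 4 bases before the start. PDK3 (chrX:24465036-24465285, plus strand) had GCGTG from 102 to 98 and ACGTG from 61 to 57 bases before the start, and PDK4 (chr7:95596517-95596766, minus strand) had no match. PDHB, the beta subunit of the first enzyme (chr3:58433833-58434082, minus strand), is shown beside them. It held the most matches of the 9 genes searched, 6 in all, while its intensities stayed within 1.24-fold.
PDK1 downstream start: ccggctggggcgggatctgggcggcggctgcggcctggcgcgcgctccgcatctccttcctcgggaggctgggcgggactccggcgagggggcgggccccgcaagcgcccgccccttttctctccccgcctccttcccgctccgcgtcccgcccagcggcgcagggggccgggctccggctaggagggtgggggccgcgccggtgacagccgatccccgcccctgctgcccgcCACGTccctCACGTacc
PDK3: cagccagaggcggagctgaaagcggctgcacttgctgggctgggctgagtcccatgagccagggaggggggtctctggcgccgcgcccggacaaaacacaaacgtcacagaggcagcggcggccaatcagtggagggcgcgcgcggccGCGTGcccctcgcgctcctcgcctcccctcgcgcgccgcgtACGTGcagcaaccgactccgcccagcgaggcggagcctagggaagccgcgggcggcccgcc
PDK4: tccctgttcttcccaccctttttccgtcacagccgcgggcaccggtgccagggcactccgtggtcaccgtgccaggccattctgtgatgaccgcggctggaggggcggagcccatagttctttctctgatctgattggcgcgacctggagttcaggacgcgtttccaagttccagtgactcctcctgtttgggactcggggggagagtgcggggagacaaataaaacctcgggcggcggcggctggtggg
PDHB: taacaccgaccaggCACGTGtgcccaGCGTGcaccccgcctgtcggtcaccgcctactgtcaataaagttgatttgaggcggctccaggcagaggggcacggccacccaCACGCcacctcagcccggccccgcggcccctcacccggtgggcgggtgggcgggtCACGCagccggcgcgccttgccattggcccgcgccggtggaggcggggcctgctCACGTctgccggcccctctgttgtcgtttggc

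**Figure D1:**
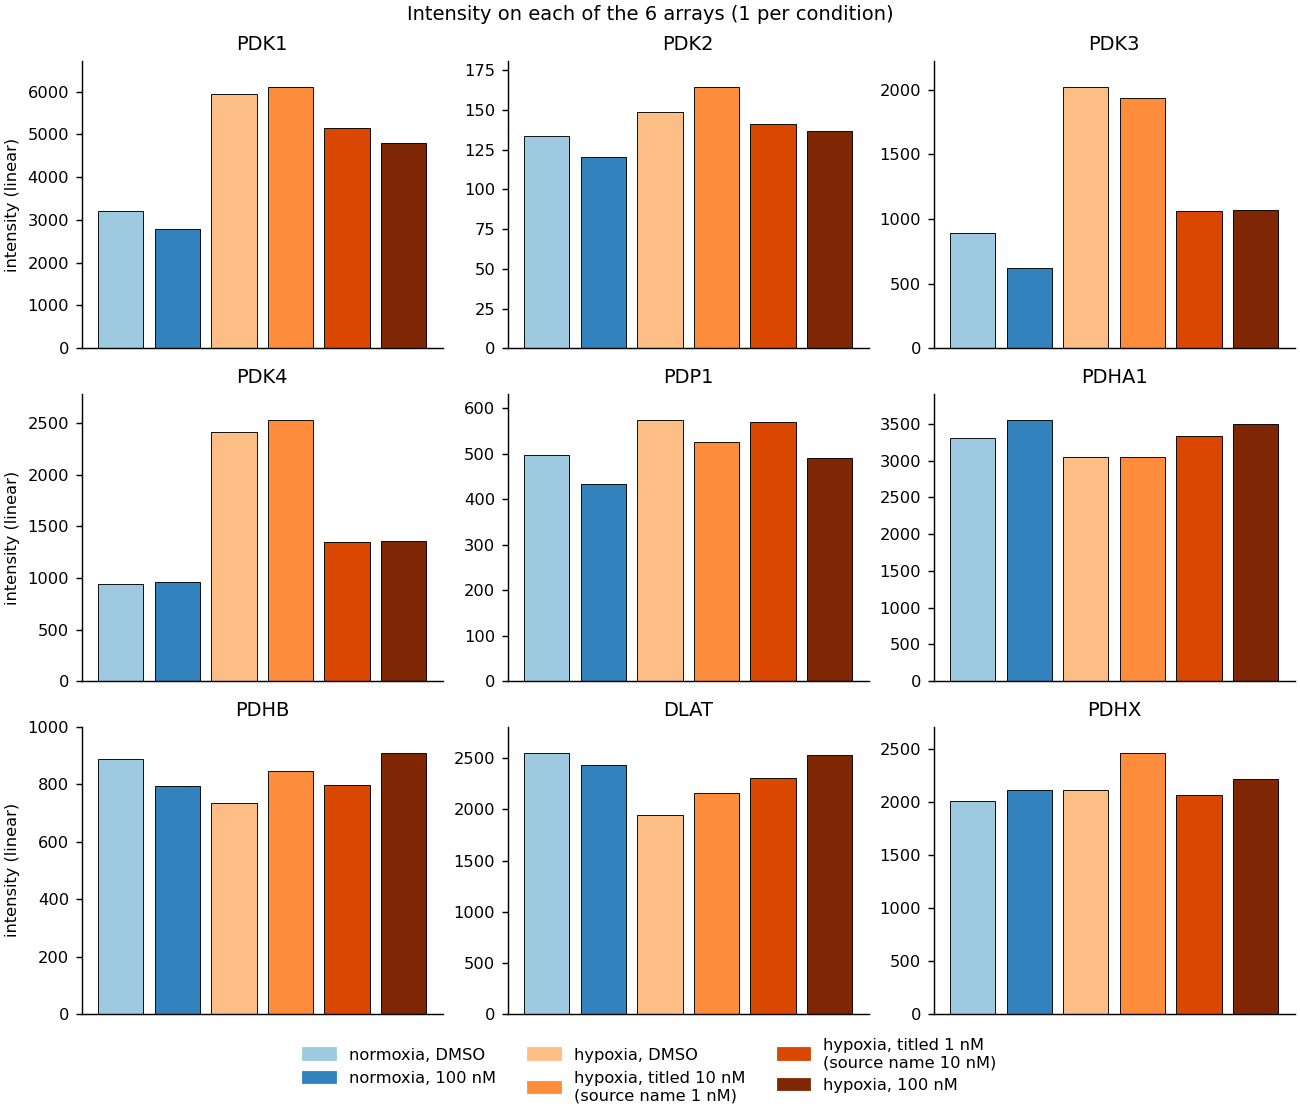
Intensity (linear scale, bars from 0, each panel with its own axis) of the 9 measured genes on each of the 6 arrays, 1 array per bar and per condition. PDK3 and PDK4 are high in hypoxia with DMSO and on the array titled 10 nM and are lower on the other 2 hypoxic arrays, PDK1 is at 4805 or more on all 4 hypoxic arrays, and the 4 subunits stay within 1.31-fold from their lowest to their highest array.

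PDK2, the widely expressed isoform, was dim and nearly level, with intensities of 134, 120, 149, 164, 141 and 137 in the order of arrays given for PDK4. Its highest value was 1.37-fold its lowest. PDP1, the calcium-stimulated phosphatase, lay between 434 in normoxia with 100 nmol/L and 574 in hypoxia with DMSO, a log2 difference between hypoxia and normoxia with DMSO of 0.21. The 95% range of the brighter genes in that comparison was 2.21-fold, which PDK3 and PDK4 exceeded while PDK1, PDK2 and PDP1 did not.

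The subunits differed little, and 3 of the 4 were lower in hypoxia with DMSO. PDHA1, the alpha subunit that the kinases phosphorylate, had an intensity of 3314 in normoxia with DMSO and of 3056 in hypoxia with DMSO, and its 6 intensities lay between 3052 and 3554. DLAT, the acetyltransferase core, was lowest in hypoxia with DMSO (1945) and highest in normoxia with DMSO (2553), a log2 difference of -0.39. PDHB, the beta subunit, was also lowest in hypoxia with DMSO at 734, against 890 in normoxia with DMSO. Its log2 difference of -0.28 depends on that hypoxic array. PDHB was at 847 on the array titled 10 nM, from which the difference would be -0.07. PDHX, which tethers the dihydrolipoamide dehydrogenase to the core, had a log2 difference of 0.07, which was -0.04 with each array centred on its median. The median log2 difference was -0.20 over the 4 subunits and 1.04 over the 4 kinases, and all 4 subunits lay inside the 95% range of the brighter genes.

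With BAY 87-2243 at 100 nmol/L in hypoxia PDK3 and PDK4 were lower than with DMSO by 1.88-fold and 1.78-fold, and PDK1 by 1.24-fold. The log2 differences were -0.91, -0.83 and -0.31. Of the 9 genes 0 were at least 2-fold lower (1.01% of all genes) or higher (0.766% of all genes). At 1.5-fold 2 were lower, against 5.7% of all genes, and 0 higher, against 4.97%. PDK3 reached -1.01 after quantile normalization and so passed the 2-fold rule there. PDK3 had the 250th lowest and PDK4 the 359th lowest difference of 18417 genes, whereas PDK1 was 3909th. PDK2 (-0.12) and PDP1 (-0.22) differed little. The 4 subunits had log2 differences from 0.07 for PDHX to 0.38 for DLAT, so DLAT and PDHB, at 2528 and 910 with 100 nmol/L, were back near their normoxic DMSO intensities. These differences share the hypoxic DMSO array with those between hypoxia and normoxia, so a high or low value on that array enters both.

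In normoxia 100 nmol/L gave no member a difference of 2-fold or 1.5-fold in either direction, against 1.31% and 6.45% of all genes. PDK3 was nearest to it, with a log2 difference of -0.52, while PDK1 was at -0.20, PDK4 at 0.03 and the 4 subunits between -0.16 for PDHB and 0.10 for PDHA1. The log2 difference with the compound in hypoxia minus that in normoxia was -0.86 for PDK4, -0.40 for PDK3 and -0.11 for PDK1, values of 4 arrays without a test. For the subunits the same quantity was 0.47 for PDHB, 0.44 for DLAT, 0.095 for PDHA1 and -0.0036 for PDHX. PDHB and DLAT thus had larger values than PDK3, of the opposite sign, but this order depends on the hypoxic DMSO array. Against that array the difference with 100 nmol/L in hypoxia was 0.31 for PDHB, 0.38 for DLAT and -0.91 for PDK3. Against the array titled 10 nM it was 0.10, 0.23 and -0.85.

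**Figure D2:**
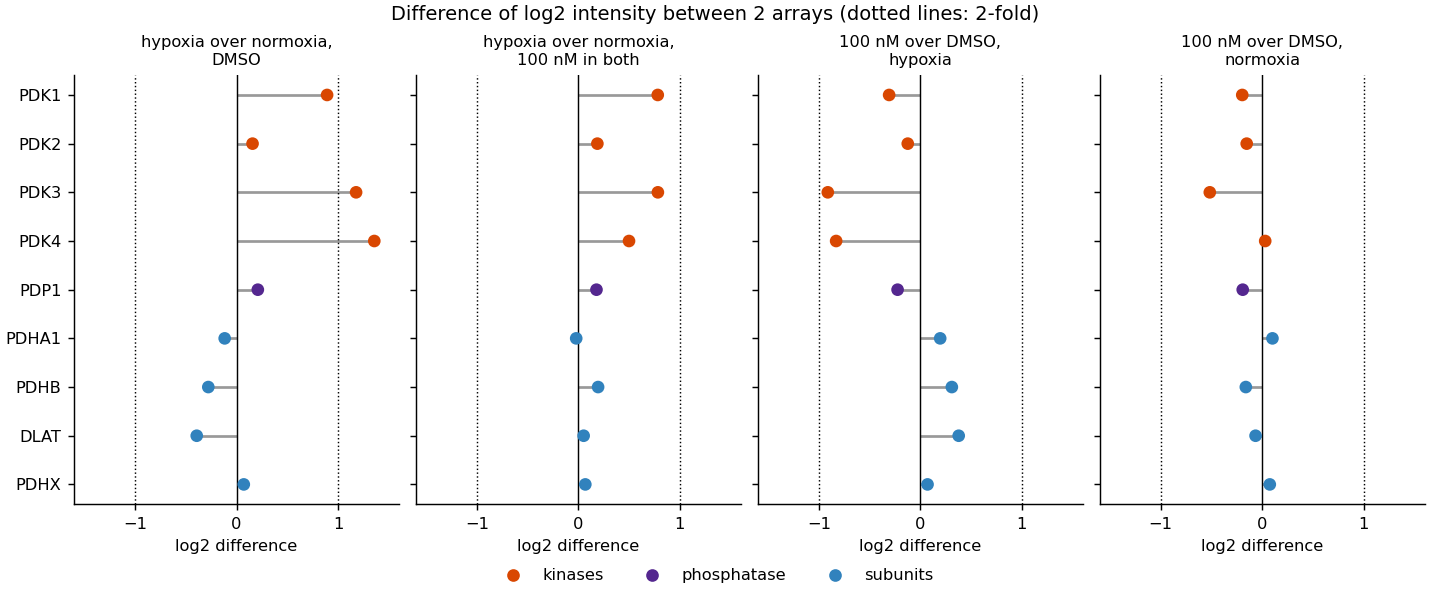
Difference of log2 intensity between 2 arrays for the 9 measured genes (kinases, phosphatase and subunits in 3 colours) in 4 comparisons, with dotted lines at 2-fold. In hypoxia over normoxia with DMSO PDK3 and PDK4 pass the line, at 1.18 and 1.36, and in the other 3 comparisons no gene does.

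With 100 nmol/L present in both normoxia and hypoxia PDK1, PDK3 and PDK4 were still higher in hypoxia. Here the difference of PDK1 came level with that of PDK3. The normoxic array they start from had PDK3 lower with the compound by -0.52 (log2) and PDK1 by -0.20. The log2 differences were 0.78 for PDK1, 0.78 for PDK3 and 0.50 for PDK4, or 1.72-fold, 1.72-fold and 1.41-fold. All lay beyond the 1.28-fold that held 95% of the brighter genes in this same comparison, which is not a separate measure of noise. No member reached 2-fold, as 0.147% of all genes did, and 2 of the 9 reached 1.5-fold, against 0.972% of all genes. PDK3 was 75th, PDK1 76th and PDK4 309th from the top of 18417 genes. PDK2, PDP1 and PDHB were between 0.18 and 0.19, and PDHA1, DLAT and PDHX between -0.02 and 0.07.

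PDK1 thereby kept 87.6% of its hypoxic log2 difference in the presence of the compound, PDK3 66.5% and PDK4 36.7%. Both hypoxic differences come from separate arrays, with none in common. The second starts from normoxia with the compound, where PDK3 differed from DMSO by -0.52 (log2), PDK1 by -0.20 and PDK4 by 0.03. Against normoxia with DMSO, hypoxia with 100 nmol/L was higher by 1.20-fold for PDK3, 1.44-fold for PDK4 and 1.5-fold for PDK1. PDK3 thus stood above PDK4 in the share kept but below it against normoxia with DMSO. For comparison, of the 859 brighter genes higher by 1.5-fold or more in hypoxia with DMSO, 64 were still so with the compound in both (7.45%), and the median share kept was 23.6%. Of these 859 genes 11, PDK1 included, kept a share as large as PDK1, 32 one as large as PDK3 and 224 one as large as PDK4. The 859 genes were selected on the hypoxic difference with DMSO.

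**Figure D3:**
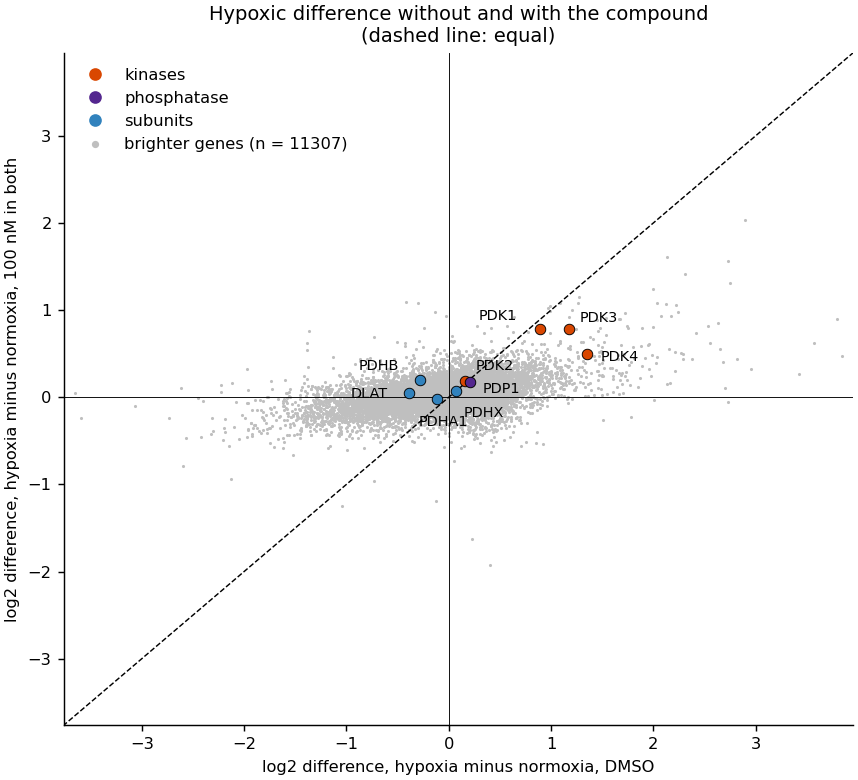
Log2 difference between hypoxia and normoxia with DMSO (horizontal axis) and with 100 nmol/L in both arrays (vertical axis) for 11307 brighter genes (grey) and the 9 measured genes (coloured by role), with a dashed line where both are equal. PDK1 lies close to the line at 0.89 and 0.78, PDK3 and PDK4 lie further to the right of it, and the other 6 genes are near the origin.

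On the array titled 10 nM no member differed from hypoxia with DMSO by 2-fold (0.266% of all genes) or by 1.5-fold (4.26% of all genes) in either direction, and the widest difference was 0.22, for PDHX. The array titled 1 nM had 0 of the 9 genes lower by 2-fold or more (0.358% of all genes) and 2 lower by 1.5-fold or more (2.54% of all genes). These were PDK3 and PDK4, with log2 differences of -0.92 and -0.84, the 90th and 128th lowest. PDK1 differed by -0.21. On that array PDK3 and PDK4 had nearly the same intensities as at 100 nmol/L, as 1065 stood against 1073 for PDK3 and 1353 against 1360 for PDK4, while PDK1 was at 5158 there and 4805 at 100 nmol/L. The same array was above normoxia with DMSO by 1.19-fold for PDK3, 1.43-fold for PDK4 and 1.61-fold for PDK1.

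The profile of PDK1 over the 6 arrays was nearest to those of SLCO4A1, an organic anion transporter, PGM1, a phosphoglucomutase of glycogen metabolism, MPI, the mannose phosphate isomerase, RIPK4, a kinase, and CAVIN3, a caveolar protein. Nearness was the Euclidean distance between log2 profiles, each centred on its own mean, and was 0.24 for SLCO4A1 and for PGM1 and 0.28 to 0.29 for the others. The nearest to PDK3 were GYS1, the muscle isoform of glycogen synthase (0.20), SMAD9, ITGA2B, RIOK3 and EGLN1, the HIF prolyl hydroxylase PHD2 (0.34). EGLN1 had log2 differences of 0.77 between hypoxia and normoxia with DMSO and 0.75 with the compound in both, beside 1.18 and 0.78 for PDK3. With 100 nmol/L it was lower at both oxygen levels, by -0.68 in hypoxia and -0.66 in normoxia. Its intensity in hypoxia with 100 nmol/L was 1.06-fold that in normoxia with DMSO. The nearest to PDK4, a list added after values were seen, were CCN5 (0.16), BCKDHA (0.20), VASN, ITGA5 and RIOK3 (0.25). The 5 genes nearest to PDK1 and to PDK3 had none in common with the 5 of highest Pearson correlation, and for PDK4 only BCKDHA was in both lists. These are descriptions over 6 arrays.

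**Figure D4:**
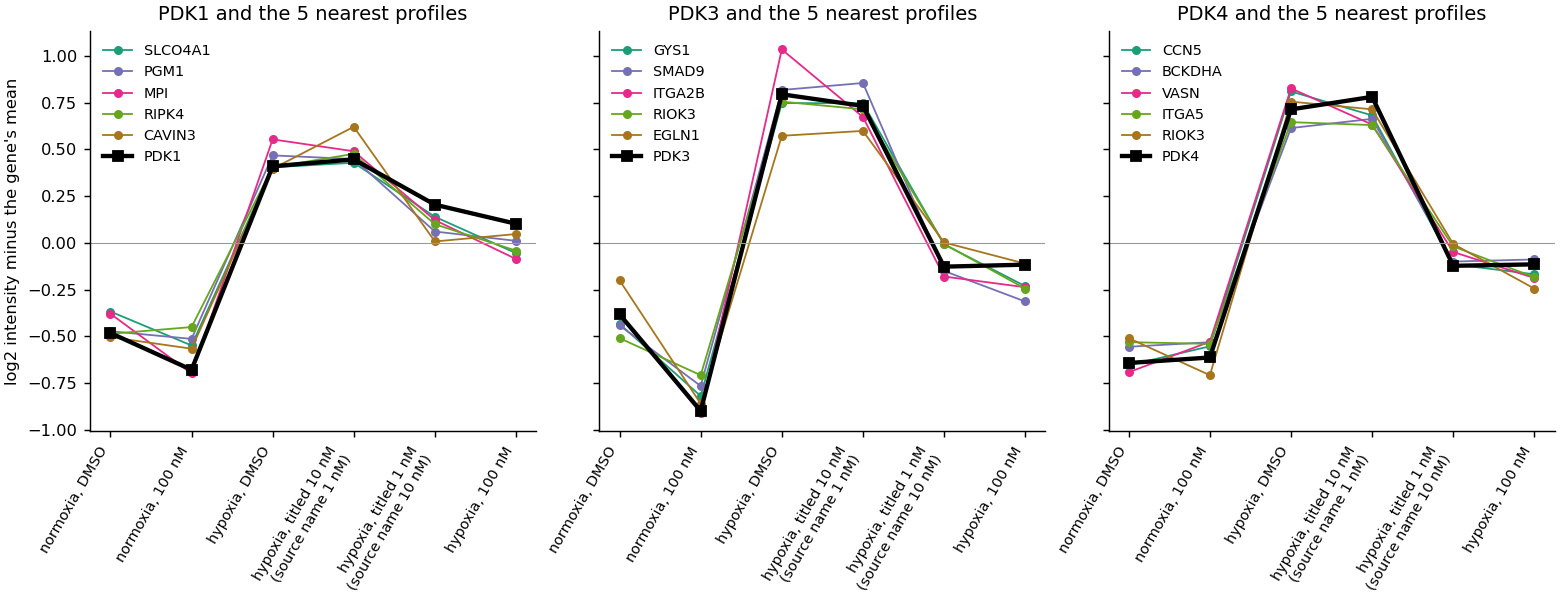
Log2 intensity minus the gene's own mean on the 6 arrays for PDK1, PDK3 and PDK4 (black squares) and for the 5 genes with the nearest profiles (coloured circles). PDK1 stays above its mean on all 4 hypoxic arrays, whereas PDK3 and PDK4 are above it only in hypoxia with DMSO and on the array titled 10 nM.

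Of the sister complexes, which act on other oxoacids with the same kind of subunits, BCKDHA was the 1 gene of 9 that passed 2-fold, and it was higher in hypoxia with DMSO, as 1.67% of all genes were. It encodes the alpha subunit of the branched-chain ketoacid dehydrogenase and had intensities of 989 and 1006 in normoxia with DMSO and with 100 nmol/L, and of 2227, 2304, 1357 and 1368 on the hypoxic arrays in the order DMSO, titled 10 nM, titled 1 nM and 100 nmol/L. These follow PDK4 from array to array. BCKDK, the kinase that inactivates that complex and a relative of the PDK family, was at 1252 and 1031 in normoxia and at 2249, 2206, 1483 and 1377 in hypoxia, a hypoxic log2 difference of 0.85 and a difference with 100 nmol/L of -0.71. BCKDK was named after its values were seen. None of the 9 was 2-fold higher or lower with 100 nmol/L in hypoxia, and the median of the 9 was -0.02 for hypoxia and -0.09 for the compound.

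The rest of the complex and the genes for its lipoyl cofactor had 0 of 7 past 2-fold upward and 1 past it downward between normoxia and hypoxia with DMSO, against 1.67% and 3.67% of all genes (median -0.36). DLD, the dihydrolipoamide dehydrogenase shared with the sister complexes, had a hypoxic log2 difference of -0.41 and one of 0.27 with 100 nmol/L in hypoxia. The 1 gene past 2-fold was LIAS, the lipoic acid synthase, at 743 in normoxia with DMSO, 399 in normoxia with 100 nmol/L and 317 to 405 on the 4 hypoxic arrays. It was high on the normoxic DMSO array only.

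Of the genes for pyruvate entry and lactate 8 of 10 were measured and 0 differed by 2-fold in any of the 6 comparisons. MPC1, a subunit of the mitochondrial pyruvate carrier, had intensities of 660 in normoxia with DMSO, of 463 on the hypoxic DMSO array and between 609 and 637 on the other hypoxic arrays. PC, the pyruvate carboxylase, was lowest in normoxia with DMSO (617) and highest in hypoxia with 100 nmol/L (877). LDHA, the lactate dehydrogenase subunit that takes up pyruvate in glycolytic cells, was at 15178 to 16723 on all arrays. SLC16A1 and SLC16A3 were not analysed here.

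The 13 genes listed as regulators of PDK genes or of mitochondrial function also had 0 past 2-fold in any comparison. Their medians were -0.02 for hypoxia and -0.18 for 100 nmol/L in hypoxia. HIF1A had an intensity of 4980 in normoxia with DMSO, which was 3872 in hypoxia with DMSO and 4972 when 100 nmol/L was added there. These are transcript values and do not give the level of the protein. The paper reports less HIF-1 alpha protein with the compound in hypoxic H460 cells, and no effect of the compound on HIF1A mRNA. The most different were PPARGC1A, a coactivator of mitochondrial genes, with intensities of 215 in normoxia with DMSO and 124 in hypoxia with DMSO, and SIRT3, a mitochondrial deacetylase, with 936 and 1352.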

How the data were processed

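The values deposited by the authors are linear intensity, for 33297 probe sets on 6 arrays. The methods name background correction with MAS 5.0 and further analysis with Expressionist, whereas RMA is the tool listed in the submitters' processing notes. No genome build of the array is given in the sources used here. Log2 was taken without a filter or an added constant. The platform annotation gave 1 symbol to 19460 probe sets and several to 1754, and 12083 were not listed. Each of 18417 genes was represented by its probe set of highest mean intensity. The 9 measured symbols are current in RefSeq, whose promoter windows were shortened to the 250 bases before each start. Of the other lists, genes past 2-fold in any of the 6 comparisons were named, or else up to 2 with the largest difference, and the 5 nearest profiles among brighter genes were named for PDK1 and PDK3. DLD, LDHA, HIF1A, BCKDK, LIPT1, some markers and the profiles nearest to PDK4 were named beyond that rule, after values were seen. Members and lists were chosen with earlier results of these data known. The alternatives were quantile normalization, centring on array medians, 32 added before log2, averaging all probe sets of a gene, brighter genes only, 1.5-fold and the array titled 10 nM for the hypoxic DMSO array. The steps were tested on simulated data. Python 3.11.15, numpy 2.4.6, pandas 2.3.3 and matplotlib 3.10.9 were used.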

Additional observations from a re-analysis of the deposited data

How the results depend on the processing

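The hypoxic differences of PDK1, PDK3 and PDK4 kept their direction under every scaling tried, and the count of 2 genes past 2-fold stayed at 2, or 3 at the 1.5-fold rule. With 100 nmol/L in hypoxia the count past 2-fold was 1 in place of 0 after quantile normalization (PDK3). At the 1.5-fold rule it was 2 with 100 nmol/L in hypoxia, 2 for hypoxia over normoxia with the compound in both and 2 for the array titled 1 nM. The median of the 9 genes, a small value in each comparison, moved more. For hypoxia over normoxia with DMSO it was 0.043 with centred arrays and 0.29 when the array titled 10 nM stood for hypoxia with DMSO. For 100 nmol/L in hypoxia it was -0.054 after quantile normalization and -0.038 with centred arrays, and for 100 nmol/L in normoxia -0.062 after quantile normalization. For the array titled 10 nM it was -0.0051 after quantile normalization and 0.17 with centred arrays. The cause was not tested. Signs changed with the scaling for PDHX in hypoxia and with 100 nmol/L in hypoxia, and for PDK1, PDK3, PDK4 and PDHA1 on the array titled 10 nM, all within 0.17 of 0 except PDHX, which reached 0.18. PDHX and PDHB moved further when the array titled 10 nM stood for hypoxia with DMSO. For hypoxia over normoxia PDHX was then 0.29 and PDHB -0.07. For 100 nmol/L in hypoxia they were -0.15 and 0.10. The mean of probe sets and the restriction to brighter genes changed no member's value, since each has 1 probe set and all 9 are brighter. No paired analysis was possible because each condition has 1 array.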

Other observations

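LIPT1, LIAS and PPARGC1A, 3 genes picked out after their values were seen, had their highest intensity on the normoxic DMSO array. LIPT1, a lipoyl transferase, was at 151 there, at 92.1 in normoxia with 100 nmol/L and at 78.9 to 112 on the 4 hypoxic arrays. PPARGC1A was at 215 there, at 133 in normoxia with 100 nmol/L and at 95.4 to 124 in hypoxia. The values of LIAS are given above. For these genes hypoxia with DMSO and 100 nmol/L in normoxia gave log2 differences from that array of -0.78 and -0.71 for LIPT1, -0.80 and -0.69 for PPARGC1A and -1.23 and -0.90 for LIAS. Those differences share the normoxic DMSO array, and the treatments and that array cannot be told apart. By their mean over the arrays LIPT1 and PPARGC1A were dimmer than the median probe set. Their hypoxic differences of 1.71-fold and 1.74-fold lay inside the 1.77-fold that held 95% of such dimmer genes. In normoxia with 100 nmol/L, 1.64-fold and 1.61-fold lay beyond the 1.49-fold of that comparison. How many of all genes were highest on the normoxic DMSO array was not counted.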
